A study of Homo sapiens with 6 samples.

Results

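The LIN28, HMGA and IGF2BP genes are 7 genes (LIN28A, LIN28B, HMGA1, HMGA2, IGF2BP1, IGF2BP2 and IGF2BP3) that were chosen by symbol from the 23686 genes of the deposited tables. They were chosen with earlier results of these data known. A count of members that passed, set beside the share of all genes, is therefore a description and not a test. All 7 passed the filter of at least 10 reads in at least 2 libraries, as did 14481 genes in all. The study asked which genes go with LGR6, an R-spondin receptor of the Wnt pathway, in 2 wild-type human non-small cell lung carcinoma lines, HCC15 and A427. Each line was transfected with LGR6 siRNA 4, LGR6 siRNA 2 or a control siRNA labelled Tax, grown in RPMI medium with 5% serum and collected at 48 h. Poly(A) RNA was sequenced as 1 library per line and siRNA, 6 in all, with 25546419 to 28987901 reads each. No group has a replicate library, and nothing in the labels says that libraries came from separate cultures. Each siRNA was therefore compared over its 2 libraries, 1 per line, and the p-values rest on how far effects differed between the lines. The edgeR test used here draws each gene's estimate of that spread toward the trend over all genes. A p-value therefore does not rest on the gene's own values alone.

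The 3 families are called oncofetal because many of their genes are high in the embryo, largely silent in most adult tissues and switched on again in many tumours. LIN28A and LIN28B are RNA-binding proteins with a cold-shock domain and zinc knuckles that hold back the maturation of let-7 microRNAs. HMGA1 and HMGA2 are small AT-hook proteins that bind the minor groove of DNA and shape chromatin. IGF2BP1, IGF2BP2 and IGF2BP3 bind and stabilise RNAs, among them IGF2 and MYC transcripts and m6A-marked RNAs. HMGA2, LIN28B and the IGF2BP genes are textbook targets of let-7, which ties the families into one circuit.

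The letters behind that circuit are shown because the members are read through them. RefSeq (GRCh38.p14) lists 12 human let-7 and miR-98 loci with 9 different 5p names, and all 9 share the seed GAGGUAG at bases 2 to 8, in capitals here.
hsa-let-7a-5p: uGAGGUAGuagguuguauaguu
hsa-let-7g-5p: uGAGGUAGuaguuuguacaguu
hsa-let-7i-5p: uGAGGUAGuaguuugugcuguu
hsa-miR-98-5p: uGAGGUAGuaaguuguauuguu
LIN28 zinc knuckles are known to bind a GGAG motif in the loop region of let-7 precursors. The 4 letters occurred on the sense strand between the arms in 9 of the 12 hairpins. MIRLET7G, on the minus strand at chr3:52268278-52268361, is one that holds them (capitals), and MIRLET7A3, on the plus strand at chr22:46112749-46112822, is one that does not.
MIRLET7G: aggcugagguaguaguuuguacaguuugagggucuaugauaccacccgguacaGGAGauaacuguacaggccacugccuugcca
MIRLET7A3: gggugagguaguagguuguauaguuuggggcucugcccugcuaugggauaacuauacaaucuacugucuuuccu
These hairpins are not captured by an mRNA library, so let-7 itself was not measured.

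A match to the let-7 seed (CTACCTC, read on the sense strand, the only motif searched) was looked for in the 3′ UTR of 1 principal transcript per gene in GENCODE 29 (GRCh38). All 7 members held one, against 1639 of 19111 protein-coding genes (8.58%). LIN28B, HMGA2 and IGF2BP1 held 4 matches each, a number reached by 12 genes of the genome (0.0628%). LIN28A, HMGA1, IGF2BP2 and IGF2BP3 held 1 each. Long 3′ UTRs hold more matches, so shares were also taken among UTRs within 1.5-fold of the member's length. There, genes with a match made up 22.6% for LIN28B, 15.6% for HMGA2, 27.9% for IGF2BP1 and 16.8% for LIN28A. The share was 8.78% for HMGA1, 10.8% for IGF2BP2 and 12.3% for IGF2BP3. Genes with at least 4 matches made up 0.255% for LIN28B, 0.0555% for HMGA2 and 0.421% for IGF2BP1. HMGA2, LIN28B and the IGF2BP genes were named above as textbook let-7 targets, so these shares are a description and not a test. The transcript matters for HMGA2, whose 7421-base alternative 3′ UTR held 0 matches, whereas the principal 3003-base one held 4. The principal transcript was taken after the longest 3′ UTR had given HMGA2 none. Sites of LIN28B are printed because they show how a transcript repeats the match, and the single sites of 3 other members for comparison, with the seed match in capitals.
LIN28B site 1, plus strand, chr6:105078811-105078834: tacccggttgcaaagtCTACCTCa
LIN28B site 2, plus strand, chr6:105081238-105081261: gtactgatgatagtaaCTACCTCt
LIN28B site 3, plus strand, chr6:105081420-105081443: tgtttacagcaaaaggCTACCTCa
LIN28B site 4, plus strand, chr6:105082859-105082882: aaaatgatggtgttgaCTACCTCt
HMGA1 site, plus strand, chr6:34245828-34245851: ttcctctgttcacaaaCTACCTCt
IGF2BP2 site, minus strand, chr3:185644220-185644243: aaacacacagaagaagCTACCTCa
IGF2BP3 site, minus strand, chr7:23311795-23311818: gtgcatttttactcaaCTACCTCa
The 7 letters are followed by A in LIN28B sites 1 and 3 and in the sites of IGF2BP2 and IGF2BP3, the base that known let-7 sites often carry there. A match describes the letters and does not show that let-7 acts on it in these cells.

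The target and the cells were checked first. LGR6 had 77 reads with siRNA 4 and 39 with siRNA 2 in HCC15, against 257 with the control siRNA, which is 30.7% (23.5% to 39.8%) and between 9.72% and 19.7% of control (exact 95% intervals, counting error). In A427 it had 0 and 0 reads with siRNA 4 and siRNA 2, against 5 with control, so silencing could not be checked there (0 reads allowed up to 116% and 122% of control). All 4 epithelial markers (KRT8, KRT18, EPCAM, CDH1) reached 1 TPM in every library. KRT8, KRT18 and CDH1 were higher in HCC15, whereas EPCAM was higher in A427 (402.95 to 457.08 TPM, against 27.57 to 53.85 TPM in HCC15). At most 1 of the 4 lung adenocarcinoma markers did (summed 0 to 1.44 TPM), none of the 4 squamous ones (at most 0.16 TPM), and endothelial markers summed to at most 0.25 TPM. Mesenchymal markers, nearly all VIM, summed to 1376 to 1631 TPM in HCC15 and 4395 to 5568 TPM in A427. VIM and FN1 were higher in A427, whereas ZEB1 and CDH2 were higher in HCC15. ZEB1 had 15.65 to 25.6 TPM in HCC15 and 9 to 11.71 TPM in A427, and CDH2 had 4.09 to 9.02 and 1.14 to 1.72 TPM. Fibroblast markers summed to 4.77 to 7.25 TPM in HCC15 and 7.35 to 11.04 TPM in A427. Leukocyte markers summed to 2.20 to 4.22 TPM in HCC15 and 25.4 to 32.5 TPM in A427, most of it CD68 (1.78 to 4.18 and 23.8 to 31.3 TPM). PTPRC was at 0 TPM in HCC15 and 1.22 to 1.58 TPM in A427, CD3E was at 0 TPM in all libraries, and the part of these gaps in the line comparison was not tested.

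The clearest pattern among the members was a swap of the LIN28 paralog between the lines. HCC15 held LIN28A and almost no LIN28B, and A427 held LIN28B and almost no LIN28A. LIN28A had 92 reads with siRNA 4, 588 with siRNA 2 and 403 with control in HCC15, against 0, 0 and 2 reads in A427. LIN28B had 1, 3 and 0 reads in HCC15 with siRNA 4, siRNA 2 and control, against 80, 192 and 318 in A427. No library of one line overlapped the other for either gene. Per length, LIN28A made up 99.4% to 100% of the summed LIN28 TPM in HCC15 and 0% to 0.932% in A427. These are bulk libraries, in which fewer cells that express a gene and less RNA per cell cannot be told apart.

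At the depth of these libraries 0 reads allow up to 3 reads, or 0.103 to 0.117 CPM (reads scaled to library size by TMM). LIN28A was at least 33.0-fold higher in HCC15 than in A427 with siRNA 4 and at least 180-fold higher with siRNA 2, each against 3 reads in the A427 library. With control it was 224-fold higher, with a counting interval of 61.6 to 1854. LIN28B was 74.4-fold higher in A427 than in HCC15 with siRNA 4 (13.0 to 2976), 69.6-fold with siRNA 2 (23.5 to 340) and at least 95.4-fold with control. The intervals are exact, at 95%, and cover counting error only. Both genes passed the filter on reads through the line where they were high, so a test between the lines would say nothing more, and none is given.

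**Figure D1:**
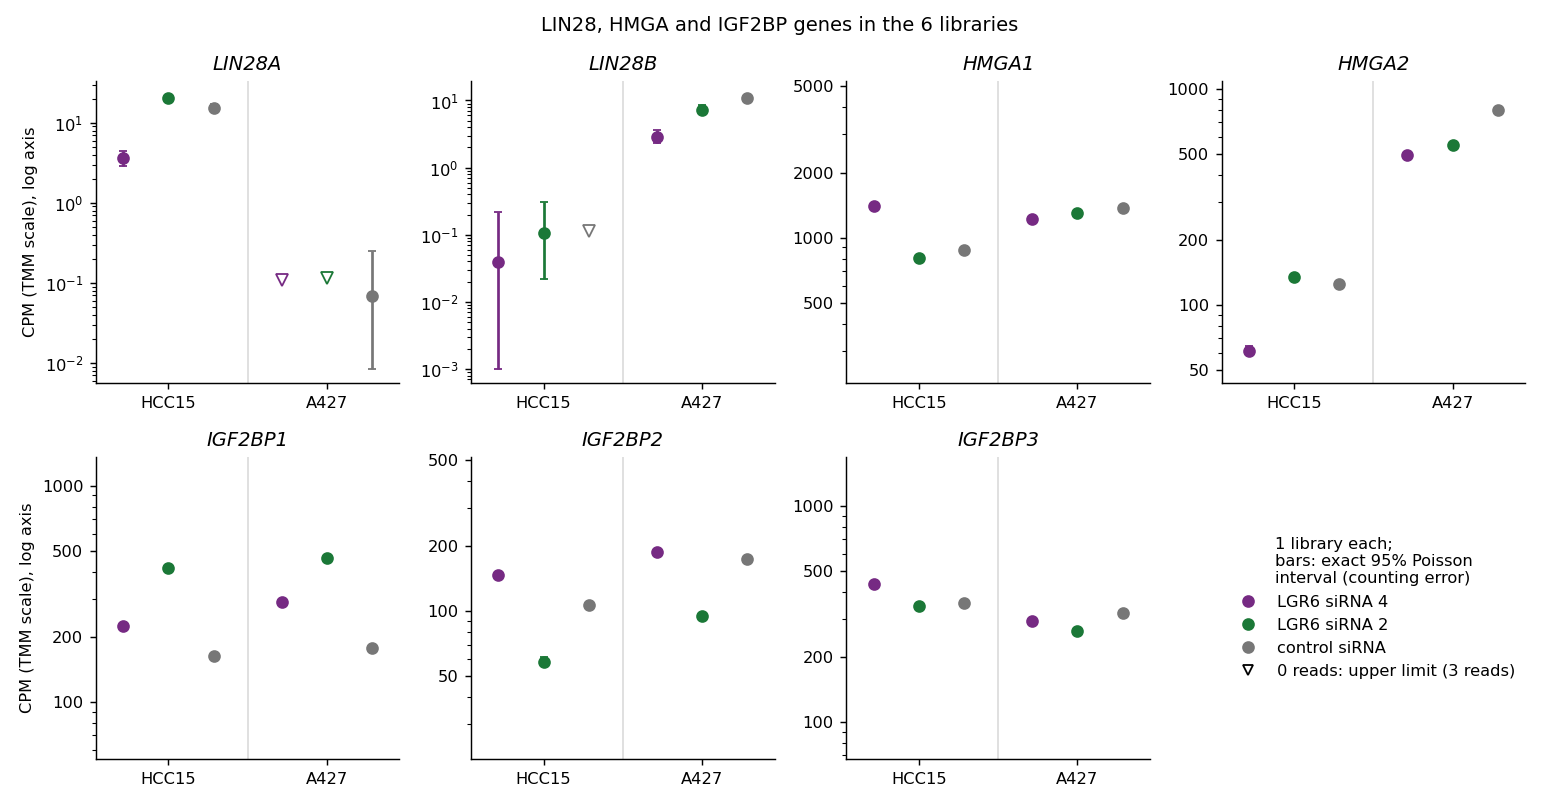
Level of each member in the 6 libraries, in CPM on a log axis, with HCC15 left and A427 right, and in each line LGR6 siRNA 4, LGR6 siRNA 2 and control from left to right. Points are single libraries, bars are exact 95% counting intervals and open triangles mark the limit of a library with 0 reads; LIN28A is high in the 3 HCC15 libraries and LIN28B in the 3 A427 libraries.

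Of the 5 members measured in both lines, 3 differed between HCC15 and A427 (edgeR's quasi-likelihood test, Benjamini-Hochberg adjusted p under 0.05), 1 higher and 2 lower in HCC15. The same was true of 76.5% of all genes tested (37.2% higher and 39.3% lower), so this count is no result about the members. HMGA2 differed most of the 5. It had 61.4 CPM with siRNA 4, 135 with siRNA 2 and 125 with control in HCC15, against 492, 549 and 798 CPM in A427. Every A427 library lay above every HCC15 library, by 8.01-fold with siRNA 4, 4.06-fold with siRNA 2 and 6.40-fold with control, and the log2 fold change was -2.57 (SE 0.18, adjusted p = 2.79e-06 by edgeR). The call held when any 1 library was left out.

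IGF2BP2 was also lower in HCC15, with 146, 58.2 and 106 CPM for siRNA 4, siRNA 2 and control, against 188, 94.6 and 175 CPM in A427. The lines overlapped for IGF2BP2 because siRNA 2 lowered it in both. The log2 fold change was -0.59 (SE 0.11, adjusted p = 0.000954 by edgeR), and without the siRNA terms in the fit the adjusted p was 0.212. IGF2BP3 was higher in HCC15, with 435, 344 and 356 CPM against 294, 263 and 318 CPM in A427 in the same order, without overlap. Its log2 fold change was 0.37 (SE 0.10, adjusted p = 0.0105 by edgeR), but the adjusted p was 0.0535 without the HCC15 siRNA 4 library, 0.0738 without the A427 siRNA 4 library and 0.0622 without the siRNA terms. HMGA1 (-0.38, SE 0.17, adjusted p = 0.0729) and IGF2BP1 (-0.22, SE 0.09, adjusted p = 0.0640) did not pass in edgeR. HMGA1 passed without the HCC15 siRNA 4 library (-0.64, adjusted p = 0.00275) or without the A427 siRNA 4 library (-0.67, adjusted p = 0.00130). In limma on log2(TPM + 1) both passed (adjusted p = 0.0215 for HMGA1 and 0.0254 for IGF2BP1).

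Per length, HMGA1 was the most abundant member in every library. It had 1481, 952 and 969 TPM (scaled by transcript length and depth) with siRNA 4, siRNA 2 and control in HCC15, against 1447, 1563 and 1617 TPM in A427. IGF2BP3 came next in HCC15 (203, 180.2 and 174 TPM in the same order) and HMGA2 in A427 (262, 297 and 421 TPM). HMGA2 gave 1.91%, 6.97% and 5.95% of the summed HMGA TPM in HCC15, against 15.3%, 16.0% and 20.6% in A427. LIN28A, at 1.73, 11.2 and 7.76 TPM in HCC15, and LIN28B, at 1.13, 2.91 and 4.25 TPM in A427, were the lowest of the members that each line expressed. HMGA1 has near-identical processed pseudogenes, and how the deposited counts split reads among them is not given, so its level is uncertain.

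LGR6 siRNA 4 lowered HMGA2 and raised IGF2BP1, and the LIN28 paralog that each line held was at 23.4% (LIN28A) and 26.6% (LIN28B) of its control level. Of the 5 members measured in both lines, 2 passed (1 higher, 1 lower; edgeR, adjusted p under 0.05), against 12.5% of all genes tested (4.58% higher and 7.95% lower). LIN28A and LIN28B were each measured in 1 line, so every siRNA comparison of them sets 1 library against 1. Their values are descriptions with counting error, and edgeR's p for them, which cannot measure a spread between lines, is not used. LIN28A had 92 reads (3.59 CPM) with siRNA 4 in HCC15, against 403 reads (15.3 CPM) with control, which is 23.4% of control (95% interval 18.4% to 29.4%).

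LIN28B had 80 reads (2.90 CPM) with siRNA 4 in A427, against 318 reads (10.9 CPM) with control, or 26.6% of control (20.6% to 34.1%). Both intervals lie below 100%, but no second library shows how far either gene varies between cultures.

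HMGA2 fell to 61.4 CPM with siRNA 4 in HCC15, against 125 CPM with control, and to 492 CPM in A427, against 798 CPM. That is 49.3% of control in HCC15 (46.4% to 52.4%) and 61.7% in A427 (60.4% to 63.0%). The siRNA 4 library was the lowest of its line in both. The log2 fold change was -0.84 (SE 0.20, adjusted p = 0.0333 by edgeR). The adjusted p was 0.286 without the HCC15 siRNA 4 library, 0.209 without the HCC15 control, 0.270 without the A427 control and 0.0614 in limma on log2(TPM + 1). IGF2BP1 rose to 225 CPM with siRNA 4 in HCC15, against 162 CPM, and to 288 CPM in A427, against 178 CPM. Its log2 fold change was 0.59 (SE 0.12, adjusted p = 0.0161 by edgeR), with an adjusted p of 0.0742 and 0.180 without the HCC15 siRNA 4 and control libraries and of 0.0767 and 0.204 without those of A427.

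HMGA1, IGF2BP2 and IGF2BP3 did not pass with siRNA 4. HMGA1 was at 160% of control in HCC15 (1406 against 877 CPM) and at 89.4% in A427 (1219 against 1363 CPM), so the direction differed by line. Its log2 fold change over both lines was 0.28 (SE 0.21, adjusted p = 0.409 by edgeR), and of the refits with a library left out it passed in that without the A427 siRNA 4 library (0.69, adjusted p = 0.0307). A difference between lines for siRNA 4 alone was not tested. IGF2BP2 was at 137% of control in HCC15 and 108% in A427 (0.28, SE 0.13, adjusted p = 0.190), and IGF2BP3 at 122% and 92.6% (0.09, SE 0.13, adjusted p = 0.694). Summed epithelial marker levels also moved with siRNA 4, to 3602 TPM in HCC15, against 5986 TPM with control, and to 989 TPM in A427, against 1263 TPM. Their part in the members' values was not tested.

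LGR6 siRNA 2 raised IGF2BP1 and lowered IGF2BP2, by almost the same factor in both lines. These are 2 of the 5 members measured in both lines (1 higher, 1 lower), given beside 7.62% of all genes tested (2.96% higher and 4.66% lower) as a description. IGF2BP1 rose to 414 CPM with siRNA 2 in HCC15, against 162 CPM with control, and to 462 CPM in A427, against 178 CPM. That is 256% of control in HCC15 (247% to 265%) and 259% in A427 (251% to 268%), with a log2 fold change of 1.36 (SE 0.12, adjusted p = 0.00246 by edgeR). The adjusted p was 0.0887 without the HCC15 control library and stayed under the threshold without any other. IGF2BP2 fell to 58.2 CPM with siRNA 2 in HCC15, against 106 CPM, and to 94.6 CPM in A427, against 175 CPM. That is 54.8% of control in HCC15 (51.5% to 58.2%) and 54.2% in A427 (51.6% to 56.9%), with a log2 fold change of -0.88 (SE 0.13, adjusted p = 0.00920 by edgeR). The adjusted p was 0.0631 without the HCC15 siRNA 2 library, 0.141 without the HCC15 control and 0.152 without the A427 control.

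HMGA1, HMGA2 and IGF2BP3 did not pass with siRNA 2. LIN28A was at 135% of control in HCC15 (118% to 153%) and LIN28B at 67.2% in A427 (55.9% to 80.7%), again 1 library against 1. HMGA2 was at 109% of control in HCC15 and 68.9% in A427 (-0.19, SE 0.20, adjusted p = 0.620 by edgeR). HMGA1, at 91.3% and 94.9%, and IGF2BP3, at 96.6% and 82.8%, were below control in both lines and did not pass (-0.10, SE 0.21, adjusted p = 0.816 and -0.16, SE 0.13, adjusted p = 0.475 by edgeR). Each SE pools the spread between lines over all 3 siRNAs. Summed epithelial marker levels went to 7865 TPM with siRNA 2 in HCC15, against 5986 TPM with control, with CDH1 at 46.0 against 8.16 TPM, and to 1233 TPM in A427, against 1263 TPM. Their part in these values was not tested. Both siRNA comparisons use the same 2 control libraries, so their values are given side by side and not as separate evidence.

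**Figure D2:**
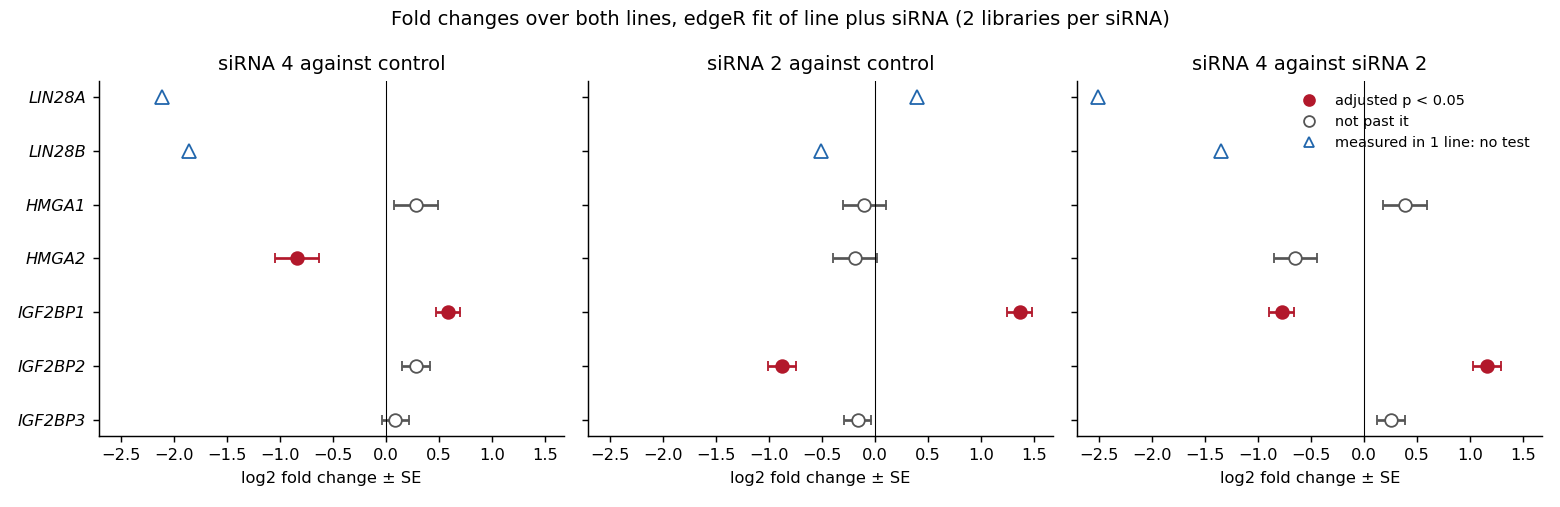
Log2 fold change of each member with its SE, over both lines, for siRNA 4 against control, siRNA 2 against control and siRNA 4 against siRNA 2. Red points passed an adjusted p of 0.05 in edgeR; IGF2BP1 lies right of 0 with either siRNA. Triangles mark LIN28A and LIN28B, each measured in 1 line, whose values are descriptions.

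Set directly against each other, the 2 reagents left different amounts of 2 of the 5 members measured in both lines, 1 higher and 1 lower with siRNA 4, against 16.5% of all genes tested (7.70% higher and 8.84% lower). IGF2BP2 was 2.51-fold higher with siRNA 4 than with siRNA 2 in HCC15 and 1.99-fold higher in A427 (log2 fold change 1.16, SE 0.13, adjusted p = 0.00175 by edgeR), and this call held when any 1 library was left out. IGF2BP1 with siRNA 4 was at 0.543 of its siRNA 2 level in HCC15 and at 0.624 in A427 (-0.78, SE 0.12, adjusted p = 0.00458), with an adjusted p of 0.0649 without the HCC15 siRNA 4 library. LIN28A with siRNA 4 was at 0.174 of its siRNA 2 level in HCC15 (92 against 588 reads), and LIN28B at 0.396 in A427 (80 against 192 reads), each 1 library against 1.

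HMGA2 had -0.65 (SE 0.21, adjusted p = 0.0665 by edgeR) and passed in DESeq2 (0.0239) or without the A427 siRNA 4 (0.0192) or A427 siRNA 2 library (0.00812). HMGA1 had 0.38 (SE 0.21, adjusted p = 0.245) and passed without the A427 siRNA 4 library (0.80, adjusted p = 0.0155). IGF2BP3 had 0.25 (SE 0.13, adjusted p = 0.212). LGR6 itself had 2.19-fold more reads with siRNA 4 than with siRNA 2 in HCC15 (77 against 39), and a part of that gap in the members' values was not tested.

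With siRNA 2 the IGF2BP family changed its make-up in both lines, whereas siRNA 4 left the shares in HCC15 near those of control and the total higher. The 3 genes summed to 330, 316 and 271 TPM with siRNA 4, siRNA 2 and control in HCC15, against 337, 312 and 315 TPM in A427. IGF2BP1 gave 14.7%, 31.7% and 13.5% of the sum in HCC15, against 20.7%, 36.5% and 13.7% in A427. IGF2BP2 gave 24.0%, 11.2% and 22.3% in HCC15, against 33.7%, 18.6% and 33.5% in A427. In both lines the siRNA 2 library had the highest share of IGF2BP1 and the lowest share of IGF2BP2. IGF2BP3 was the largest of the 3 in every library, at 57.1% to 64.2% in HCC15 and 44.9% to 52.8% in A427.

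**Figure D3:**
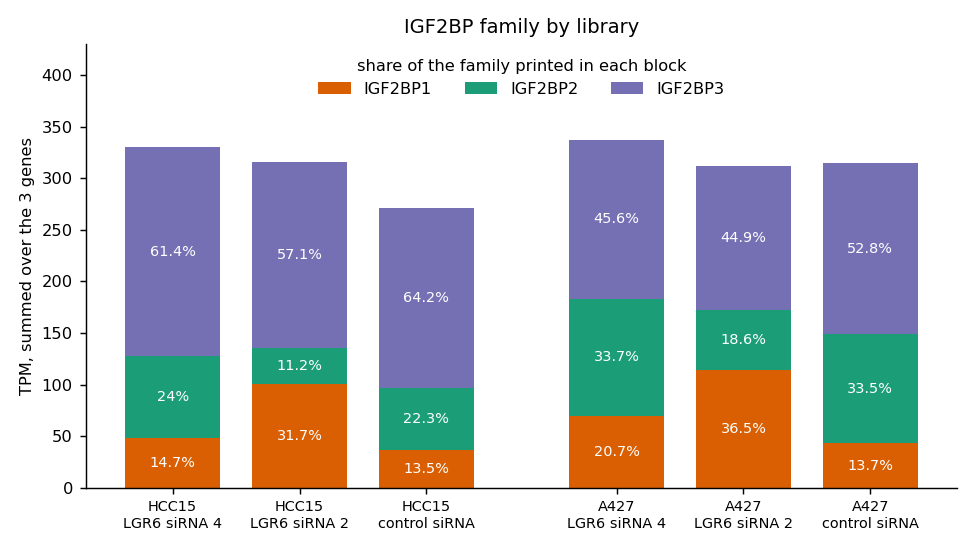
Summed TPM of IGF2BP1, IGF2BP2 and IGF2BP3 in each library, 1 bar per library, HCC15 left and A427 right, with each gene's percent of the sum printed in its block. The totals lie between 271 and 337 TPM, while IGF2BP1 takes 31.7% and 36.5% in the 2 siRNA 2 libraries and at most 20.7% elsewhere.

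With both LGR6 siRNAs taken as 1 group, 4 libraries against the 2 control libraries, 0 of 7 members and 0% of all genes passed in edgeR. At an unadjusted p under 0.05 there were 1512 genes and 1 member, IGF2BP1, with a log2 fold change of 1.03 (SE 0.31, adjusted p = 0.342). DESeq2 called 387 genes and 0 members. When each siRNA had its own term and their mean was tested, 1298 genes and 2 members passed in edgeR. The members were IGF2BP1 (0.97, adjusted p = 0.00368) and LIN28B, the last measured in A427 alone. That fit leaves the difference between the 2 siRNAs out of the spread, so its calls concern the mean of these 2 reagents. Of the members measured in both lines, IGF2BP1 was above control in all 4 LGR6 siRNA libraries, and HMGA1, HMGA2, IGF2BP2 and IGF2BP3 lay on both sides of it. The difference of this response between HCC15 and A427 passed for 0 members and 0% of all genes in edgeR (78 genes and 0 members at an unadjusted p under 0.05; 0 genes in DESeq2). The SE of that difference was 0.37 to 0.91 on the log2 scale for the 5 members measured in both lines, so differences of that size were not detectable. The spread in that fit is the gap between siRNA 4 and siRNA 2 within each line. A lack of calls there does not show that the lines responded alike.

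Genes that prepare and destroy let-7 were described beside the members. Of 14 tested, 9 were higher and 1 lower in HCC15 than in A427, with a median log2 fold change of 0.39 beside -0.03 over all genes, of which 37.2% were higher and 39.3% lower. MSI1, an RNA-binding protein known to work with LIN28, had 1.65 (adjusted p = 0.000245), and XPO5, which exports microRNA precursors from the nucleus, had 0.73 (adjusted p = 0.000496, both by edgeR). With siRNA 4, 2 of 14 rose and 1 fell (12.5% of all genes passed), and the median was 0.06 beside -0.01. ZCCHC6, a terminal uridylyltransferase of let-7 precursors, rose to 91.4 CPM in HCC15, against 41.0 CPM with control, and to 42.9 CPM in A427, against 27.0 CPM (0.91, adjusted p = 0.00844). DICER1, which cuts the precursor hairpin, fell to 145 CPM in HCC15, against 344 CPM, and to 158 CPM in A427, against 225 CPM (-0.86, adjusted p = 0.0209). KHSRP, a loop-binding helper of let-7 processing, rose with either siRNA (0.41, adjusted p = 0.0498 with siRNA 4 and 0.53, adjusted p = 0.0299 with siRNA 2). It was the 1 of 14 to pass with siRNA 2, where 7.62% of all genes did, and the median was -0.09 beside -0.01. When each library was left out in turn, ZCCHC6 passed in 4 of 6 fits, DICER1 in 3 of 6 and KHSRP in 2 of 6 with either siRNA.

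Other known let-7 targets did not move as one. Of 24 tested, 3 rose and 3 fell with siRNA 4 (median -0.07 beside -0.01 over all genes, of which 4.58% rose and 7.95% fell), and 3 rose and 2 fell with siRNA 2 (median 0.13 beside -0.01; 2.96% and 4.66% of all genes). The cell-cycle kinase CDK6 fell to 328 CPM with siRNA 2 in each line, against 847 CPM with control in HCC15 and 773 CPM in A427 (-1.31, adjusted p = 0.00723 by edgeR). BACH1, a heme-sensing repressor, rose with either siRNA, to 130 CPM with siRNA 4 and 127 CPM with siRNA 2 in HCC15, against 60.3 CPM, and to 60.0 and 59.2 CPM in A427, against 36.3 CPM (adjusted p = 0.00589 and 0.00994). The cyclin CCND2 rose with siRNA 4 (1.67, adjusted p = 0.00724 by edgeR). Leaving out each library in turn, CDK6 passed in 5 of 6 fits and BACH1 in 4 of 6 for siRNA 4 and 3 of 6 for siRNA 2, while CCND2 passed in 3 of 6. Among the 25 listed targets 16 held a seed match in the 3′ UTR.

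**Figure D4:**
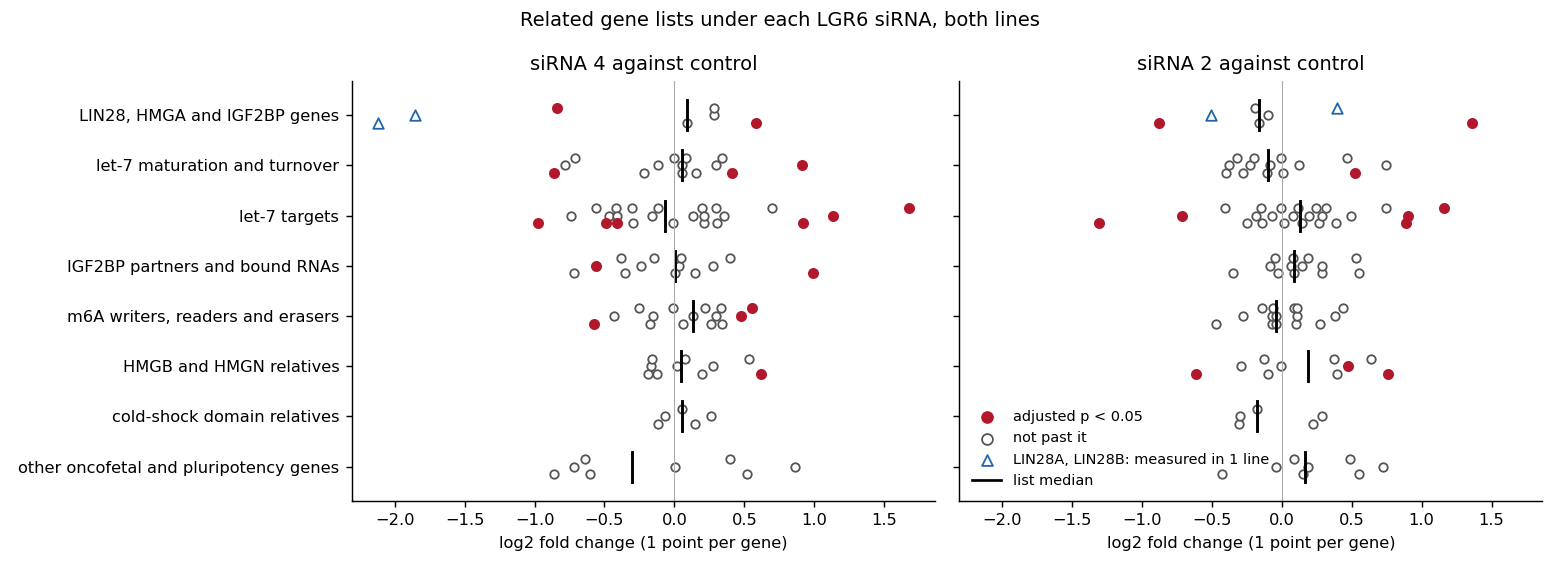
Log2 fold change of every tested gene of 7 related lists and of the members, over both lines, for siRNA 4 against control (left) and siRNA 2 against control (right). Red points passed an adjusted p of 0.05 in edgeR and black bars are list medians; each list has points on both sides of 0. Triangles mark LIN28A and LIN28B, each measured in 1 line.

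Among 13 partners and bound RNAs of IGF2BP proteins, none passed with siRNA 2 in edgeR (median 0.09 beside -0.01 over all genes, of which 7.62% passed), and 1 was higher and 1 lower with siRNA 4 (median 0.01 beside -0.01; 12.5% of all genes passed). The IGF2BP1 partner SYNCRIP fell with siRNA 4 (-0.56, adjusted p = 0.0229) and passed in 3 of 6 fits with a library left out. Between the lines 7 were higher and 5 lower in HCC15, where 37.2% of all genes were higher and 39.3% lower, so this count is no result about the list. CD44 and ABCB1, a cell-surface receptor and a drug pump, had 8.77 to 20.03 CPM in the HCC15 libraries and 0.0763 to 0.181 CPM in those of A427. Both are among those counted as higher and passed the filter through HCC15, which fixes their direction. CD44 was the 1 counted as higher with siRNA 4, with 514 reads against 254 with control in HCC15, which is again 1 library against 1. The imprinted RNAs were lower in HCC15, H19 by -3.54 (adjusted p = 5.96e-06) and IGF2 by -2.77 (adjusted p = 8.38e-06), each at no more than 1.23 CPM in HCC15. Of 15 m6A writers, readers and erasers, none passed with siRNA 2 (7.62% of all genes did), and FTO and ALKBH5, the demethylases, rose with siRNA 4 (0.56 and 0.48, adjusted p = 0.0224 and 0.0365) while the reader YTHDF3 fell (-0.57, adjusted p = 0.0191). Each of these 3 passed in 2 of 6 fits with a library left out.

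Of 10 tested HMGB and HMGN genes, the other high-mobility-group proteins, 2 rose and 1 fell with siRNA 2 (median 0.19 beside -0.01; 7.62% of all genes passed) and 1 rose with siRNA 4 (median 0.05 beside -0.01; 12.5%). HMGN2, which binds nucleosomes, rose to 721 CPM with siRNA 2 in HCC15, against 416 CPM with control, and to 473 CPM in A427, against 284 CPM (0.76, adjusted p = 0.00889 by edgeR; 4 of 6 fits with a library left out). Of 5 other cold-shock domain genes none passed with either siRNA, and YBX2, a germ-cell RNA-binding protein, was lower in HCC15 than in A427 (-3.96, adjusted p = 3.41e-08).

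Of 16 other oncofetal and pluripotency genes, 8 were tested between the lines, and 7 were lower and 1 higher in HCC15 (39.3% and 37.2% of all genes). Among them GPC3 and SOX2 passed the filter through A427 alone, which fixes their direction, so the tally is no measure of the list. PEG10, an imprinted retrotransposon-derived gene, was the 1 that was higher (log2 fold change 0.65, adjusted p = 0.00933 by edgeR), with 495, 1149 and 982 CPM with siRNA 4, siRNA 2 and control in HCC15, against 352, 990 and 414 CPM in A427. SALL4, a stem-cell transcription factor, had 0.117, 0.736 and 0.723 CPM with siRNA 4, siRNA 2 and control in HCC15, against 31.0, 37.1 and 52.6 CPM in A427. GPC3, a fetal-liver proteoglycan, had 0.0779, 0.245 and 0.152 CPM in HCC15, against 12.5, 12.7 and 9.18 CPM in A427. SALL4 passed in edgeR (-6.24, adjusted p = 1.86e-07) and in 6 of 6 fits with a library left out. With either siRNA against control none of the 8 passed in edgeR, where 12.5% of all genes passed with siRNA 4 and 7.62% with siRNA 2. Against siRNA 2, 7.70% of all genes were higher and 8.84% lower with siRNA 4. Of the 8 here, 0 were higher and 2 lower. The counts were 2 and 3 of 10 HMGB and HMGN genes. They were 2 (CD44 among them) and 4 of 13 IGF2BP partners and bound RNAs, and 2 and 2 of 14 let-7 maturation genes. They were 3 and 2 of 24 let-7 targets, 1 and 0 of 5 cold-shock domain genes and 0 and 0 of 15 m6A genes.

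Genes whose levels ran most like each member over the 6 libraries were picked from 13090 genes with a mean of at least 1 CPM, by the root mean square difference of centred log2(CPM + 0.5). They were ATOH8 (0.24) and IQGAP2 (0.26) for LIN28A, NDNF (0.23) and SLC16A7 (0.24) for LIN28B, and SULF2 (0.10) and KLC3 (0.12) for HMGA2. SULF2 had 0.662, 2.21 and 1.67 CPM with siRNA 4, siRNA 2 and control in HCC15, against 9.50, 10.1 and 12.8 CPM in A427. For IGF2BP1 they were SLCO4A1 (0.15) and SCML2 (0.21), and SCML2 had 33.1, 65.8 and 20.7 CPM in HCC15, against 31.9, 64.3 and 18.5 CPM in A427. For IGF2BP2 they were ERLIN2 (0.10) and ZNF652 (0.11), for IGF2BP3 WWP1 (0.05) and CLK1 (0.05), and for HMGA1 PDP2 (0.09) and GSS (0.09). The 6 libraries share their 2 lines and 3 siRNAs, so a close match describes these libraries only.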

How the data were processed

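As deposited by the authors, 1 table holds RSEM expected counts and another holds TPM, each for 23686 gene symbols. The submitters' processing notes name FastQC 0.11.1, the aligner STAR 2.5.3a, the quantifier RSEM 1.3.3 and the build hg19. The annotation and the strand setting were not given in the sources used here. Deposited expected counts need not be whole (5.75% to 6.29% of values per library were not) and were rounded. Deposited TPM were used for levels per length, shares, markers and an alternative.

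The 14481 genes that reached 10 reads in 2 or more libraries were tested with edgeR 4.0.16 in R 4.3.3 (TMM, glmQLFit without the legacy setting, glmQLFTest), with Benjamini-Hochberg adjustment over all of them and a threshold of 0.05. Line plus siRNA as terms (2 residual degrees of freedom) gave HCC15 against A427 and the comparisons of single siRNAs. Line plus arm (LGR6 or control siRNA; 3 degrees) gave both siRNAs together. Line by arm (2 degrees) gave the difference between lines. These degrees are those of a single gene, before edgeR's sharing of the spread over genes. The script was tested on simulated counts. Alternatives were DESeq2 1.42.0, its size factors, no filter and limma 3.58.1 on log2(TPM + 1) and log2(TPM + 0.1). Others were each siRNA as its own term for both siRNAs together, and no siRNA terms for HCC15 against A427. Leaving out each library left 1 residual degree of freedom (2 for line plus arm). An SE is the log2 fold change over the root of F. Intervals are exact, at 95%, and cover counting error only.

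By the labels, libraries of equal siRNA number got the same reagent, which pairs them across the lines: siRNA 4 minus siRNA 2 correlated at 0.594 between lines across genes (0.660 over genes of at least 100 reads). It is part of the fit of line plus siRNA. Members and gene lists were chosen with earlier results of these data known. Genes named were the members, LGR6, up to 4 list genes per list and comparison by size of change with a mean of at least 1 CPM, and the 2 genes most like each member. Sequences are from RefSeq (GRCh38.p14) and GENCODE 29 (GRCh38), and no deposited coordinate was used.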

Additional observations from a re-analysis of the deposited data

How the results depend on the processing

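For single siRNAs, refits with 1 library left out moved the counts of calls, which here include LIN28A and LIN28B although each is measured in 1 line. The members past the threshold numbered 0 to 4 for siRNA 4 against control (4 with all libraries), 0 to 2 for siRNA 2 against control (2) and 1 to 5 for siRNA 4 against siRNA 2 (4), and all genes numbered 97 to 2098 (1814), 4 to 1438 (1104) and 439 to 2220 (2395). The lowest counts of genes came without the HCC15 control library for either siRNA against control and without the HCC15 siRNA 4 library for siRNA 4 against siRNA 2. These refits keep 1 residual degree of freedom, or 2 for both siRNAs together. Members whose direction turned in at least 1 refit had these log2 ranges. With siRNA 4 against control, LIN28B ran between -1.90 and 3.23, HMGA1 between -0.17 and 0.69 and IGF2BP3 between -0.062 and 0.26. With siRNA 2, LIN28A ran between -3.78 and 0.46, LIN28B between -0.56 and 4.58, HMGA1 between -0.36 and 0.14, HMGA2 between -0.62 and 0.20 and IGF2BP3 between -0.30 and 0.026. For siRNA 4 against siRNA 2, LIN28A ran between -3.36 and 1.67, HMGA1 between -0.089 and 0.80 and LGR6 between -2.28 and 3.16. For both siRNAs together, LIN28A ran between -3.98 and 0.33, LIN28B between -1.55 and 4.09, HMGA1 between -0.10 and 0.35, IGF2BP2 between -0.53 and 0.013 and IGF2BP3 between -0.18 and 0.15. CD44, an IGF2BP-bound RNA, ran between -0.11 and 1.05 for siRNA 4 against control and between -0.21 and 0.98 for siRNA 4 against siRNA 2. The difference between lines could not be fitted without a control library.

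The member counts in this paragraph also include LIN28A and LIN28B. Without the siRNA terms, 3 members passed for HCC15 against A427, beside 5 in the main fit. Of the members measured in both lines, only HMGA2 was left, because IGF2BP2 and IGF2BP3 no longer passed. With each siRNA as its own term, the mean of both siRNAs gave 1298 genes and 2 members, beside 0 and 0 in the main fit. DESeq2 gave 387 genes there, and limma on log2(TPM + 1) or log2(TPM + 0.1) 1 gene each. On log2(TPM + 1) and on log2(TPM + 0.1), 1 member each passed for siRNA 4 against control and 2 each for siRNA 4 against siRNA 2. On log2(TPM + 0.1), 678 genes passed for siRNA 2 and 1145 for siRNA 4 against control. The causes of these shifts were not tested. DESeq2's size factors moved the median of all genes by at most 0.02 on the log2 scale and changed no call among the genes named. Depth limits LIN28A in A427 and LIN28B in HCC15, where 0 to 3 reads were counted.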
